A study of Mus musculus with 24 samples.

Results

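Myelin and oligodendrocyte genes were followed across 24 Affymetrix Mouse Gene 2.0 ST arrays of hippocampal RNA. The list held 32 genes that are known from mature or differentiating oligodendrocytes, and a gene was measured by the probe set that names it alone, with the highest mean where there was more than 1. This gave values for 31 of the 32 genes, among 17092 protein-coding genes tested on the array. The transferrin gene Trf is part of the list but its only probe set names several genes and was not used. All 31 measured genes passed the filter on low values, and only Cryab and Ndrg1 had a choice of 2 probe sets.

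The mice carried the APPswe transgene, labelled B6.Cg-Tg(APPswe)E1-2Dbo/J and known as Tg2576, in which the prion promoter drives human amyloid precursor protein with the Swedish mutation, and no mice without the transgene were among these arrays. They were 16 to 18 months old by the labels. There were 7 arrays from vehicle (saline) mice, 3 from mice given vorinostat (SAHA), an inhibitor of histone deacetylases, 3 from mice given tadalafil, an inhibitor of phosphodiesterase 5, 7 from mice given the combination of both drugs, and 4 from mice given CM-414, which is known here only by its code name. Every group was treated for 4 weeks, was tested for memory, and had a washout of 4 weeks before the hippocampus was taken, so that the arrays describe tissue after the drugs had been withdrawn.

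Oligodendrocytes wrap axons in myelin, a stack of membranes that is rich in lipid and held together by a small set of very abundant proteins. In the hippocampus most of this myelin lies in fibre tracts such as the alveus and the fimbria, next to layers that hold few oligodendrocytes. Olig1, Olig2 and Sox10 act from the precursor stage onwards, and Myrf switches on the genes of the myelinating cell. In RNA of whole tissue, fewer oligodendrocytes and less RNA per oligodendrocyte cannot be told apart.

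The arrays resembled each other closely, with correlations between 2 arrays from 0.956 to 0.992, array medians from 5.90 to 5.98 on the log2 scale, and 84.3 to 85.7% of probe sets above a log2 value of 4. Vehicle 3 and CM-414 3 stood apart by their region markers. All 15 listed thalamus markers were measured. Their mean reached 8.94 in vehicle 3 and 9.24 in CM-414 3 and stayed between 7.31 and 7.99 in the other 22 arrays, with 7.40 to 7.50 for vorinostat, 7.42 to 7.54 for tadalafil and 7.31 to 7.54 for the combination. The value of 7.99 came from vehicle 2, where 13 of the 15 markers lay above their median over the arrays. The next highest of the 22 was CM-414 4 at 7.56. Markers of CA1 neurons, 7 measured of 10, had a mean of 7.29 in vehicle 3 and of 6.92 in CM-414 3, whereas every other array had one between 8.29 and 8.86. These log2 values have no zero, so that no marker can be called absent. The small nucleolar RNA Snord13 split the arrays into 2 sets of 12 arrays. The first, with Snord13 at 7.27 to 8.46, held all vorinostat and tadalafil arrays with replicates 1 to 3 of vehicle and of the combination. The second, at 10.35 to 11.46, held the CM-414 arrays with replicates 4 to 7 of vehicle and of the combination. The labels do not name these sets. Vorinostat and tadalafil can be compared with vehicle only in the first set and CM-414 only in the second, and each comparison of the whole list with vehicle is given with and without vehicle 3 and CM-414 3. Vehicle 2, with its raised thalamus markers, stays in the first set when vehicle 3 is left out.

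The 31 genes varied together from array to array. The mean of the 31 genes was 9.43 in vehicle 3 and 9.38 in CM-414 3, and lay between 8.36 in combination 1 and 9.08 in tadalafil 3 in the other 22 arrays. Vehicle 3 was the highest of the vehicle arrays for 28 of the genes, and CM-414 3 the highest of the CM-414 arrays for 29. Of the 31 genes, 28 had their highest value of all 24 arrays in one of these 2 arrays, 16 in vehicle 3 and 12 in CM-414 3. The lowest value of a gene fell in combination 1 for 12 genes, in vorinostat 2 for 9 and in CM-414 4 for 7. All 31 genes lay below their own median over the 24 arrays in combination 1 and in vorinostat 2, and all 31 lay above it in CM-414 3. High and low arrays of the whole list thus occurred within the same treatment group.

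**Figure D1:**
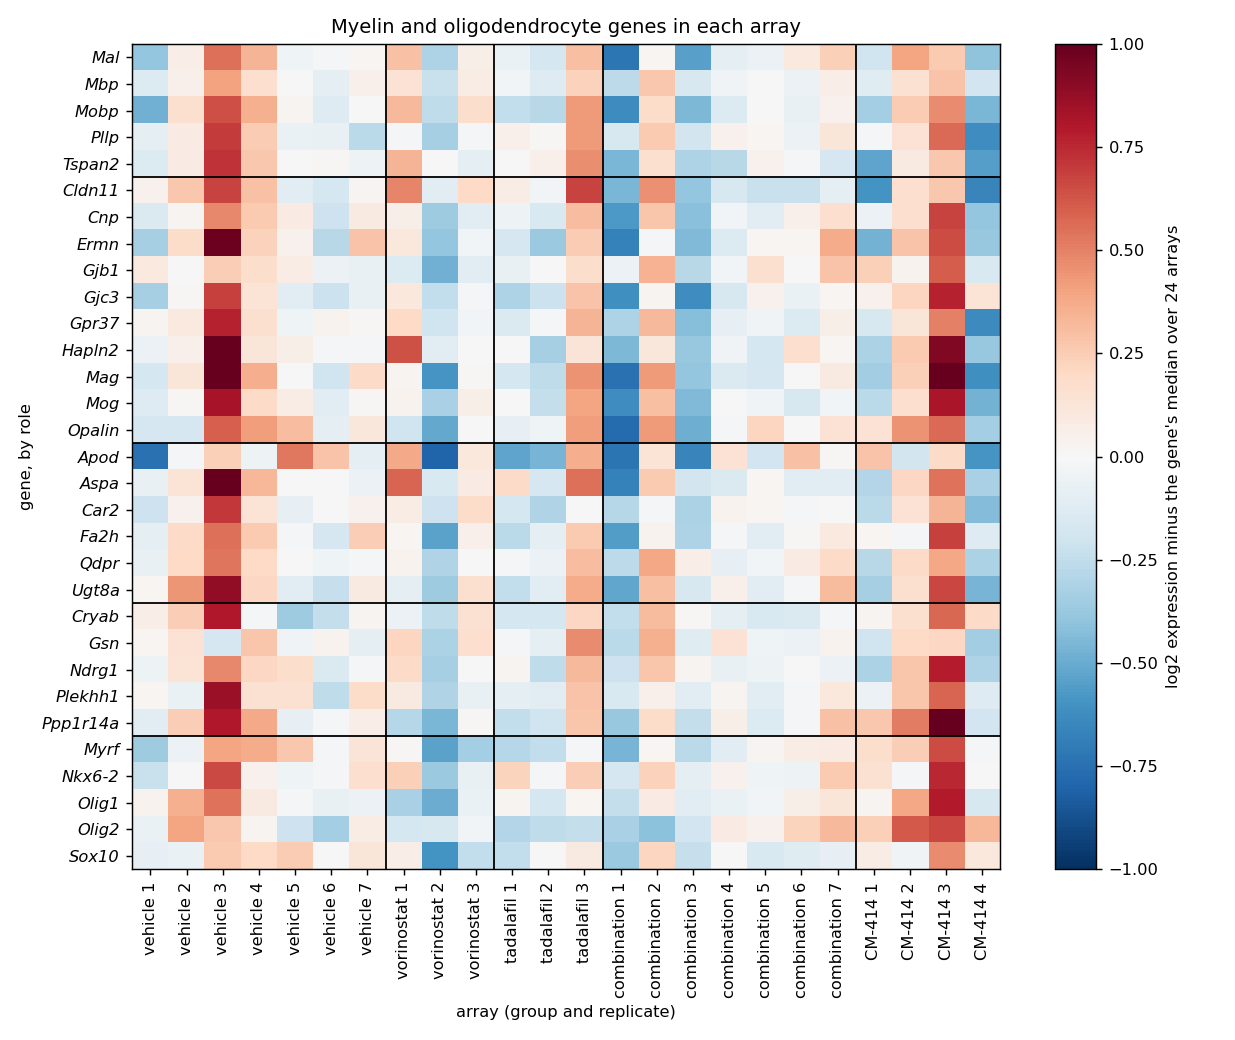
Each cell is the log2 expression of a gene (rows, ordered by role) in an array (columns, by group and replicate) minus that gene's median over the 24 arrays, with colours ending at 1 above and 1 below the median. Vehicle 3 and CM-414 3 are red across nearly all 31 genes, whereas combination 1 and vorinostat 2 are blue.

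Over the members, the median distance of vehicle 3 from the mean of the other vehicle arrays was 0.66 on the log2 scale, and that of CM-414 3 from the mean of the other CM-414 arrays was 0.64. The median SD among the vehicle arrays was 0.29, and 0.17 without vehicle 3, with a smaller SD for 30 of the 31 genes. The range over all 24 arrays went from 0.66 (Mbp) to 1.99 (Aspa), with a median of 1.27. Hapln2, which encodes a link protein of the matrix at the node of Ranvier, shows the extreme case: its vehicle arrays lay between 7.64 and 7.83 apart from vehicle 3 at 8.84. Gsn, Apod and Olig2 were not highest in vehicle 3. Gsn, which encodes the actin-severing protein gelsolin, was at 7.98 in vehicle 3, the lowest of the 7 vehicle arrays. Apod, which encodes the lipid carrier apolipoprotein D, had its highest value of 10.41 in vehicle 5, and Olig2 had 8.74 in vehicle 2 and 8.62 in vehicle 3. Because thalamus markers were high in the same 2 arrays, their part in the level of the myelin genes was not tested beyond leaving these arrays out.

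**Figure D2:**
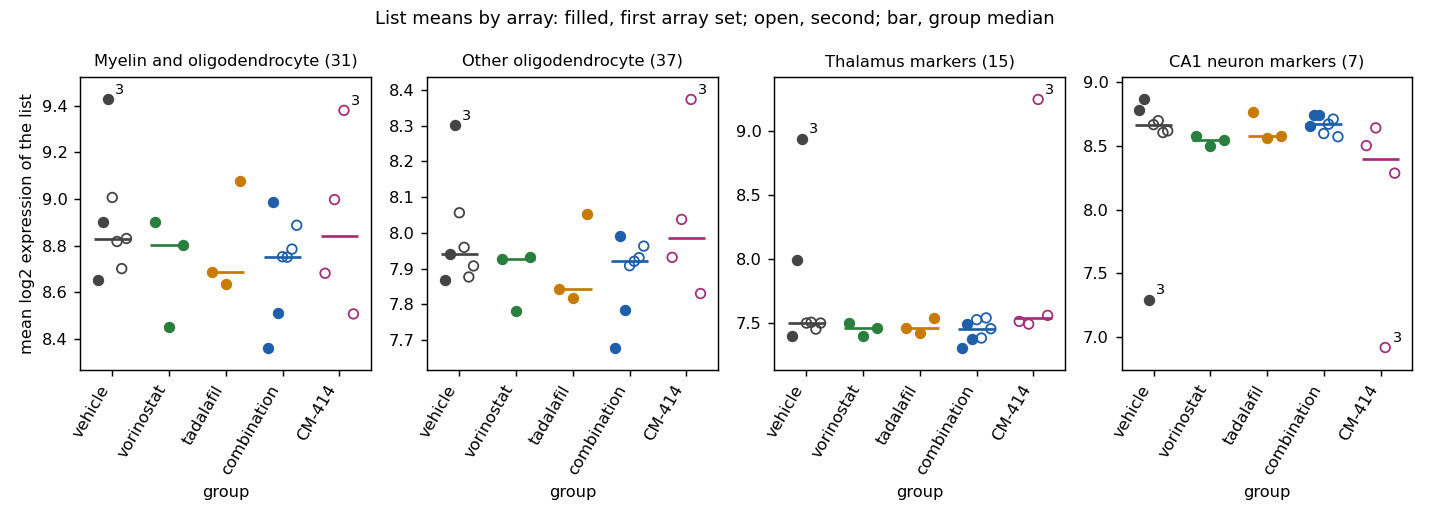
Each point is an array and gives the mean log2 expression of a gene list, for the 31 myelin and oligodendrocyte genes, 37 other oligodendrocyte genes, 15 thalamus markers and 7 CA1 neuron markers, by treatment group. Filled points belong to the first array set and open points to the second, the bar is the group's median, and the number 3 marks vehicle 3 and CM-414 3, which are high in the first 3 lists and low in the fourth.

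After the combination, every one of the 31 genes lay below vehicle, whereas none passed an adjusted p of 0.05 in limma. Genes called at this threshold made up 0.0% of all 17092 genes in this comparison, and 50.3% of all genes lay below vehicle. The median difference over the 31 genes was -0.20 on the log2 scale, against -0.00058 over all genes, with single genes from -0.37 to -0.01. With both array sets together, none of the 31 reached an unadjusted p of 0.05, which 4.04% of all genes did, and the smallest adjusted p among them was 0.995. The combination and vehicle arrays overlapped for all 31 genes, and among all genes 0.0761% did not overlap. The mean of the list was 8.91 ± 0.26 (SD, n = 7) in vehicle and 8.72 ± 0.21 (SD, n = 7) after the combination.

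The size of the difference depended on a few arrays. Without vehicle 3 and CM-414 3, 27 of the 31 genes lay below vehicle (51.0% of all genes) and the median difference was -0.11. By role, the medians without these 2 arrays were -0.14 for compact myelin, -0.14 for the surface and junctions, -0.11 for lipids, -0.06 for the cytoskeleton and -0.08 for transcription factors, each with 1 gene above vehicle except the cytoskeleton with 0. Without combination 1 the median over the list was -0.13. Within the first array set all 31 genes were below vehicle (51.2% of all genes) with a median of -0.40, which was -0.17 without vehicle 3, and within the second set 22 of 31 were below (49.0% of all genes) with a median of -0.04. In the first set 2 lipid, 1 surface and 2 transcription factor genes had an unadjusted p under 0.05, with 943 of all 17092 genes. In the second set 2 transcription factor genes did, with 548 of all genes. The smallest adjusted p among the 31 in limma was 0.833 in the first set and 0.9998 in the second. The difference between the sets was itself tested, with 29 of the 31 differences below 0 (50.6% of all genes). None of the 31 genes passed, as 0.0% of all genes, with a smallest adjusted p of 0.772 for Olig2.

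**Figure D3:**
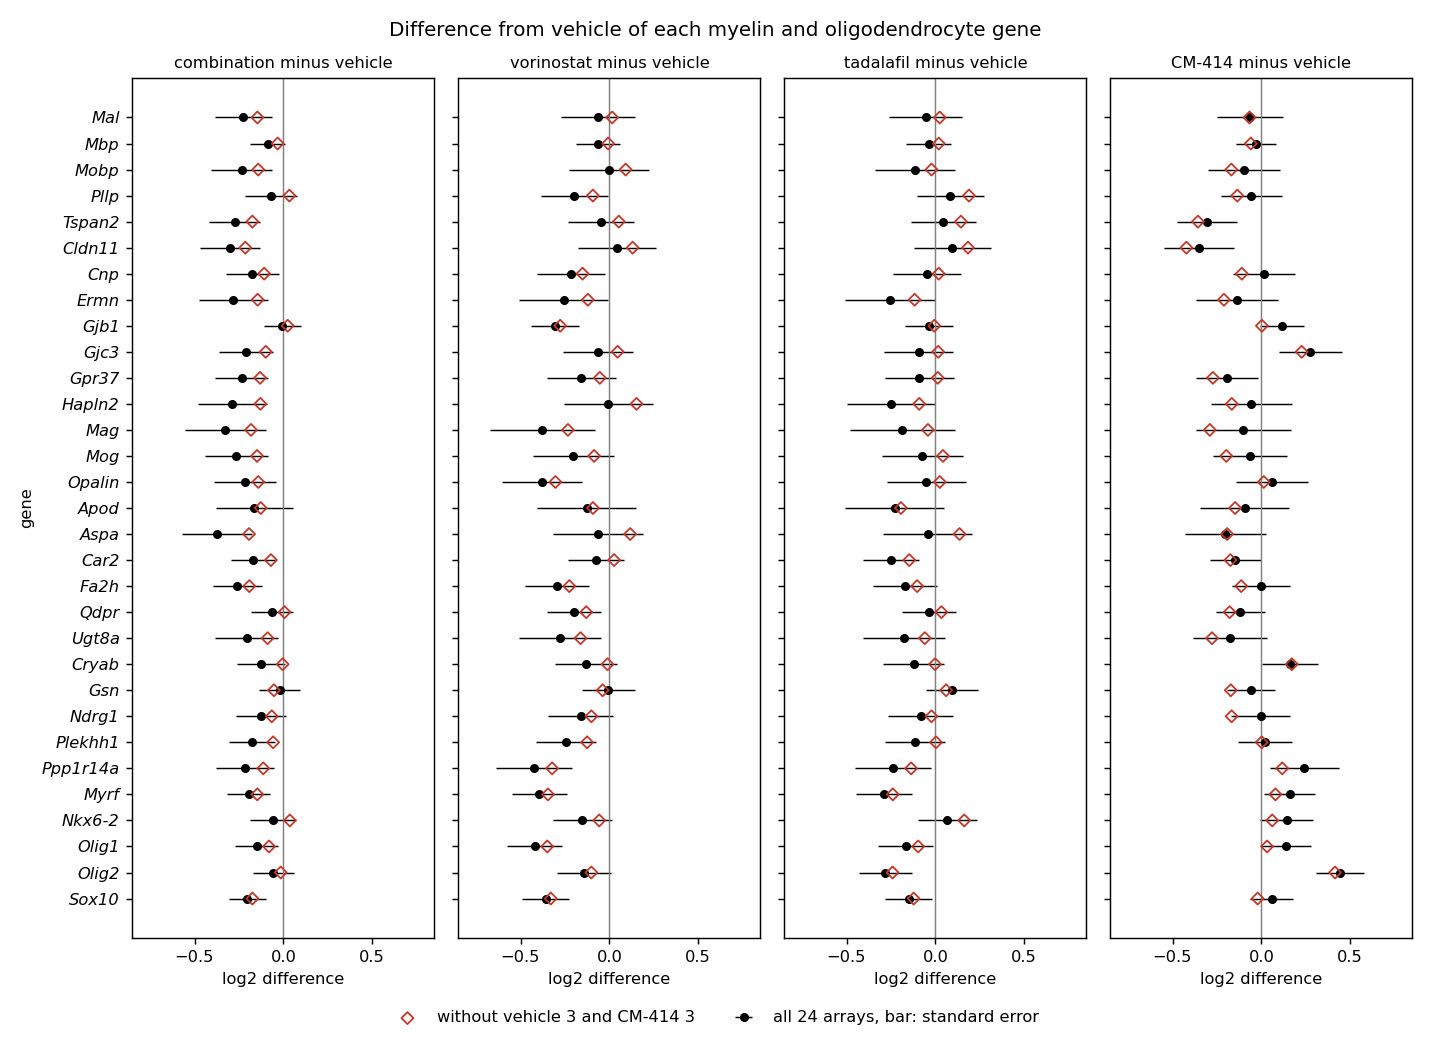
Each row is a gene, by role from compact myelin at the top to transcription factors at the bottom, and each panel is a treatment compared with vehicle, on the log2 scale. Black points are differences over all 24 arrays with their standard error, and open diamonds are the same differences without vehicle 3 and CM-414 3, most of which lie closer to 0 in the combination panel.

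Among the genes of compact myelin and its membrane (Mbp, Mobp, Mal, Pllp and Tspan2), the median difference after the combination was -0.23. Mbp encodes the basic protein that holds the inner faces of the membrane together, and its arrays were close to each other, from 9.11 through a median of 9.30 to 9.65 in vehicle and from 8.99 through 9.22 to 9.52 after the combination. Its vorinostat arrays were at 9.39, 9.02 and 9.33, its tadalafil arrays at 9.22, 9.12 and 9.48, and its CM-414 arrays at 9.13, 9.40, 9.54 and 9.06. All 5 groups overlapped for Mbp. Tspan2, which encodes a tetraspanin of the myelin membrane, went from 9.70 through a median of 9.86 to 10.57 in vehicle and from 9.39 through 9.67 to 9.999 after the combination, a difference of -0.27 (standard error 0.14, adjusted p = 0.995 in limma), and -0.17 without vehicle 3 and CM-414 3. Mal, which encodes a proteolipid that sorts membrane proteins, ranged from 10.33 to 11.26 in vehicle, with a median of 10.73, and from 9.99 to 10.95 after the combination, with a median of 10.66, a difference of -0.23 (standard error 0.16, adjusted p = 0.995). The groups overlapped for both genes. Mobp, the gene of another basic protein of compact myelin, and Pllp, the gene of plasmolipin, had means over the 24 arrays of 10.86 and 8.53 and differences of the same sign.

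The largest group held 10 genes of the myelin surface, its junctions and the node (Cldn11, Cnp, Ermn, Gjb1, Gjc3, Gpr37, Hapln2, Mag, Mog and Opalin), with a median difference of -0.25 after the combination. Cldn11 encodes the claudin of the tight junctions between myelin lamellae. It lay between 10.04 and 10.89 in vehicle with a median of 10.26, and between 9.76 and 10.68 after the combination with a median of 9.997, a difference of -0.30 (standard error 0.17, adjusted p = 0.995). The value of 10.68 came from combination 2, and the other 6 combination arrays lay at or below 10.12. Gpr37, the gene of an orphan receptor of myelinating cells, differed by -0.23 (standard error 0.15, adjusted p = 0.995), with 9.07 to 9.89 in vehicle (median 9.15) and 8.69 to 9.45 after the combination (median 9.04). The group also spans the genes of the adhesion protein Mag at the inner side of the sheath and of Mog at its outer side. Their means over 24 arrays were 8.998 and 8.98, and their ranges of 1.84 and 1.45 were among the wider ones. Cnp (mean 9.18), Ermn (9.63) and Opalin (7.33) had treated arrays that overlapped vehicle in each comparison.

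For the 6 genes of lipid synthesis, metabolism and transport (Apod, Aspa, Car2, Fa2h, Qdpr and Ugt8a) the median difference after the combination was -0.19. Aspa encodes aspartoacylase, which releases acetate from N-acetylaspartate. It was between 7.72 and 8.13 in 6 vehicle arrays and at 9.12 in vehicle 3, and between 7.12 and 8.06 after the combination with a median of 7.68. The difference was -0.37 (standard error 0.20, adjusted p = 0.995) and -0.19 without vehicle 3 and CM-414 3. Fa2h, whose product adds the hydroxyl group to the fatty acids of myelin galactolipids, lay between 8.34 and 9.06 in vehicle (median 8.70) and between 7.95 and 8.60 after the combination (median 8.49), a difference of -0.26 (standard error 0.14, adjusted p = 0.995). The groups overlapped for both genes. Ugt8a, the gene of the enzyme that makes galactosylceramide, had a mean of 9.79, and Qdpr, which regenerates tetrahydrobiopterin, had a mean of 7.82.

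The 5 genes of the cytoskeleton, chaperones and signalling (Cryab, Gsn, Ndrg1, Plekhh1 and Ppp1r14a) had a median difference of -0.13 after the combination. Plekhh1 and Ppp1r14a, the gene of an inhibitor of myosin phosphatase, differed by -0.18 (standard error 0.13) and -0.22 (standard error 0.16), both with an adjusted p of 0.995 in limma. Vehicle arrays of Plekhh1 ran from 7.27 to 8.39 with a median of 7.68, and combination arrays from 7.38 to 7.64 with a median of 7.51. For Ppp1r14a, vehicle ran from 7.15 to 8.06 (median 7.32) and the combination from 6.88 to 7.55 (median 7.24). The combination arrays of Plekhh1 lay wholly inside the vehicle range, and those of Ppp1r14a overlapped it. The small heat shock protein gene Cryab had a mean of 9.45 and Ndrg1 a mean of 9.68.

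The 5 transcription factor genes (Myrf, Nkx6-2, Olig1, Olig2 and Sox10) had a median difference of -0.15 after the combination. Sox10 went from 6.97 through a median of 7.17 to 7.32 in vehicle and from 6.69 through 6.93 to 7.27 after the combination, a difference of -0.20 (standard error 0.10, adjusted p = 0.995) and -0.17 without vehicle 3 and CM-414 3. Myrf went from 7.65 through 8.13 to 8.39 in vehicle and from 7.54 through 8.02 to 8.08 after the combination, a difference of -0.20 (standard error 0.12, adjusted p = 0.995). The groups overlapped for both genes. Nkx6-2, a homeobox gene of myelinating cells, had a mean over all arrays of 7.32.

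With vorinostat alone, 30 of the 31 genes lay below vehicle (53.7% of all genes) and none was called, against 0.00585% of all genes. The median difference was -0.16, against -0.01 over all genes. The mean of the list was 8.90, 8.45 and 8.80 in the 3 vorinostat arrays, so that vorinostat 2 was the low one. Without vorinostat 2 the median was -0.08, without vehicle 3 and CM-414 3 it was -0.09 with 23 of 31 below (54.6% of all genes), and in the first array set alone it was -0.30 with 29 of 31 below (55.2% of all genes), which became -0.07 without vehicle 3. An unadjusted p under 0.05 was reached by 4 genes, 12.9% of the 31 against 8.76% of all genes. Of these 4, Olig1, Sox10 and Myrf are transcription factors and Gjb1 encodes connexin 32, a gap junction channel of oligodendrocytes.

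Olig1, a helix-loop-helix factor of the lineage, was at 8.55, 8.38 and 8.82 with vorinostat and between 8.81 and 9.42 in vehicle with a median of 8.91. The difference was -0.42 (standard error 0.16, adjusted p = 0.446 in limma), and -0.35 without vehicle 3 and CM-414 3 (adjusted p = 0.253). The highest vorinostat array lay above vehicle 6 (8.81) alone, which belongs to the second array set. Vehicle 1 to 3, of the first set, were at 8.91, 9.23 and 9.42, above all 3 vorinostat arrays. How many of all genes stood clear in the first set was not counted. Sox10 was at 7.12, 6.45 and 6.81 with vorinostat, a difference of -0.36 (standard error 0.13, adjusted p = 0.45), and Myrf was at 8.01, 7.46 and 7.66, a difference of -0.39 (standard error 0.16, adjusted p = 0.484). Vorinostat 1 lay inside the vehicle range for both, and vorinostat 3 did so for Myrf, whose lowest vehicle array was at 7.65. In the first array set without vehicle 3 the differences with vorinostat were -0.08 for Myrf, -0.18 for Sox10, -0.49 for Olig1 and -0.29 for Gjb1. Gjb1 was at 6.19, 5.85 and 6.22 with vorinostat and from 6.25 through a median of 6.40 to 6.57 in vehicle, a difference of -0.31 (standard error 0.14, adjusted p = 0.534). Against all 7 vehicle arrays, Gjb1 was the only one of the 31 genes that did not overlap with vorinostat, where 3.48% of all genes did not overlap.

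The median over the 5 transcription factor genes was -0.36 with vorinostat, and all 5 lay below vehicle. Over the 5 genes of compact myelin it was -0.06, also with all 5 below vehicle, and for Mbp the difference was -0.06. Over the surface and junction genes it was -0.21, and over the lipid genes -0.16. Leaving out vehicle 3 and CM-414 3, the transcription factor median was -0.33 with all 5 below, and the compact myelin median was 0.02 with 2 below and 3 above. The surface and junction median was then -0.10, and the lipid median -0.11. For the cytoskeleton genes the median was -0.16, and -0.10 without these 2 arrays. In the first array set alone the transcription factors did not stand out, with a median of -0.30. There the cytoskeleton genes were at -0.37, the surface and junction genes at -0.31, the lipid genes at -0.30 and compact myelin at -0.11. No test was made of the difference between these roles. Choroid plexus markers, from the epithelium that secretes cerebrospinal fluid, were higher than vehicle for all 11 measured of 12 with vorinostat, with a median difference of 0.85. Over all genes 53.7% lay below vehicle. None of the markers was called, against 0.00585% of all genes. Their mean ranged from 7.11 to 8.62 in the vorinostat arrays and from 6.40 to 8.24 in vehicle. In vehicle 1 to 3, of the first array set, it was 6.80, 6.46 and 6.40, below all vorinostat arrays. The part of these markers in the values of the oligodendrocyte genes was not tested.

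**Figure D4:**
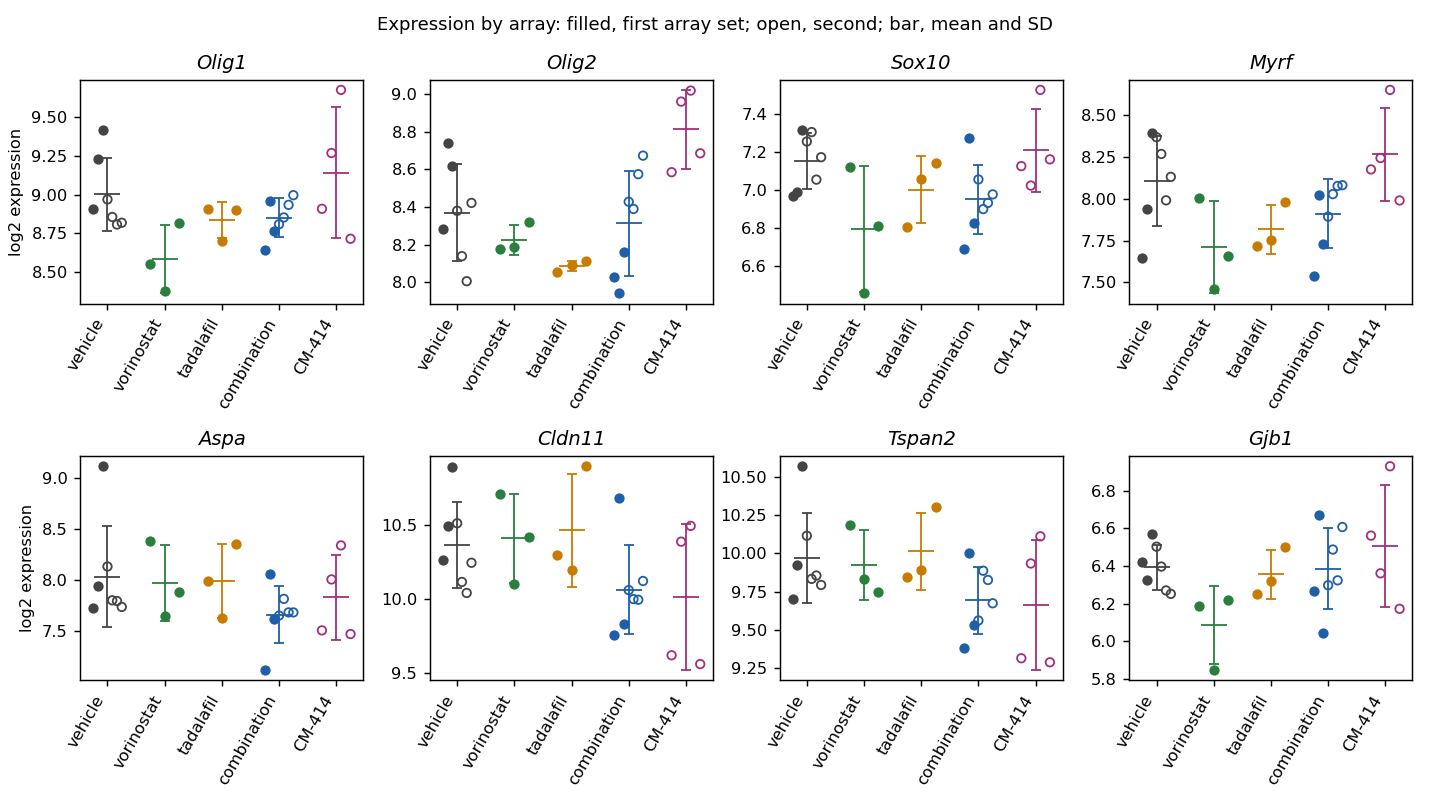
Each point is the log2 expression of a gene in an array, by treatment group, with a bar for the group's mean and SD. Filled points belong to the first array set and open points to the second. Olig1, Sox10, Myrf and Gjb1 are lowest on average with vorinostat, and all 4 CM-414 arrays of Olig2 lie above 8.5.

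With tadalafil alone, 26 of the 31 genes lay below vehicle (50.0% of all genes), with a median difference of -0.095, and none was called, as 0.0% of all genes. With vehicle arrays of both sets, none reached an unadjusted p under 0.05, which 5.32% of all genes did. None had tadalafil arrays clear of these vehicle arrays, as 2.14% of all genes had. Without vehicle 3 and CM-414 3, 16 of 31 lay below vehicle (50.9% of all genes) and the median was -0.002. In the first array set 28 of 31 lay below (52.5% of all genes) with a median of -0.18, which was 0.04 without vehicle 3. There 2 of the 5 transcription factor genes had an unadjusted p under 0.05 in limma, with 943 of all 17092 genes. No gene of the other roles did, and the smallest adjusted p of the transcription factors was 0.807. Olig2 had the smallest p. Its tadalafil arrays were at 8.06, 8.09 and 8.11, close together at the lower end of vehicle, which ran from 8.01 through a median of 8.38 to 8.74, and the difference was -0.28 (standard error 0.15, adjusted p = 0.94). Myrf was at 7.71, 7.75 and 7.98, a difference of -0.29 (standard error 0.16, adjusted p = 0.94). Car2, the gene of a carbonic anhydrase of oligodendrocytes, was at 10.59, 10.46 and 10.76, whereas vehicle ran from 10.55 through 10.81 to 11.47, a difference of -0.25 (standard error 0.16, adjusted p = 0.94). Sox10 was at 6.81, 7.06 and 7.14, a difference of -0.15 (standard error 0.13, adjusted p = 0.955). For all 4 genes some tadalafil arrays lay inside the vehicle range over both array sets. For Olig2, however, all tadalafil arrays lay below vehicle 1 to 3 of the first set, at 8.28, 8.74 and 8.62. How many of all genes stood clear in this way was not counted. In the first array set without vehicle 3, Myrf and Sox10 were at 0.0245 and 0.0232 against vehicle, Car2 at -0.08 and Olig2 at -0.42.

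For CM-414, 19 of the 31 genes lay below vehicle (52.4% of all genes), with a median difference of -0.06, and none was called, against 0.00585% of all genes. With vehicle arrays of both sets, for none of the 31 did the CM-414 and vehicle arrays stand clear of each other, against 1.18% of all genes. The 4 arrays spread widely, with list means of 8.68, 8.998, 9.38 and 8.51. Without vehicle 3 and CM-414 3 the median was -0.14 with 21 of 31 below (53.3% of all genes), without vehicle 3 alone it was 0.06, without CM-414 3 alone -0.18, without CM-414 4 alone 0.11 and without CM-414 1 alone 0.05. In the second array set 11 of 31 lay below vehicle (51.5% of all genes) with a median of 0.02, which was -0.15 without CM-414 3. The direction of the list against vehicle thus depended on which array was included.

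Over all 24 arrays Olig2, a helix-loop-helix factor needed to form oligodendrocytes, was the only gene of the 31 with an unadjusted p under 0.05 for CM-414. This was 3.23% of the list against 12.6% of all genes. Without vehicle 3 and CM-414 3, 1 surface, 1 compact myelin and 1 transcription factor gene did, with 2382 of all 17092 genes. In the second array set alone 1 surface, 1 cytoskeleton and 1 transcription factor gene did, and the count over all genes is not given here. The CM-414 arrays of Olig2 were at 8.58, 8.96, 9.02 and 8.68, with vehicle from 8.01 through a median of 8.38 to 8.74. All 4 arrays lay above the vehicle median, and 2 of them lay inside the range of all 7 vehicle arrays. In the second array set vehicle 4 to 7 were at 8.38, 8.14, 8.01 and 8.42, below all 4 CM-414 arrays. How many of all genes stood clear in this way was not counted. The difference of Olig2 was 0.44 over all arrays (standard error 0.14, adjusted p = 0.178 in limma). It was 0.41 without vehicle 3 and CM-414 3 (adjusted p = 0.211) and 0.57 in the second array set alone (adjusted p = 0.457). All 5 transcription factor genes lay above vehicle with CM-414, with a median of 0.14, whereas all 5 compact myelin genes lay below, with a median of -0.06. Without vehicle 3 and CM-414 3, 4 of the 5 transcription factor genes lay above (median 0.06) and all 5 compact myelin genes below (median -0.14), and in the second array set alone 5 lay above (median 0.19) and 3 of 5 below (median -0.06). Tspan2 was at 9.32, 9.93, 10.11 and 9.29, a difference of -0.31 (standard error 0.17, adjusted p = 0.456), and Cldn11 at 9.62, 10.38, 10.49 and 9.56, a difference of -0.35 (standard error 0.20, adjusted p = 0.476). For both genes CM-414 1 and CM-414 4 lay below every vehicle array. Gjc3, which encodes connexin 29 of the myelin sheath, was at 10.06, 10.24, 10.79 and 10.15 against 9.69 to 10.70 in vehicle (median 9.95), a difference of 0.28 (standard error 0.18, adjusted p = 0.539).

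Markers of dentate granule neurons, all 10 measured, had low means in CM-414 4 (6.85), CM-414 3 (6.82), vehicle 3 (6.73) and combination 3 (6.96), and means between 7.42 and 8.10 in the other 20 arrays. The mean of the 31 genes in these 4 arrays was 8.51, 9.38, 9.43 and 8.51 in the same order. The part of these regions in the values was not tested.

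Set against each other, the combination lay below vorinostat for 14 of the 31 genes (46.7% of all genes) and below tadalafil for 24 (50.3% of all genes), with median differences of 0.03 and -0.06 and no gene called in either, as 0.0% of all genes. The groups overlapped for all 31 genes in both comparisons, where 4.94% of all genes against vorinostat and 2.47% against tadalafil did not overlap. Gjb1 lay 0.30 higher after the combination than with vorinostat (standard error 0.14, adjusted p = 0.568), the only gene of the 31 at an unadjusted p under 0.05 here, against 8.39% of all genes. Against tadalafil there was none, and 4.16% among all genes. Both comparisons depended on single arrays, since the median against vorinostat was -0.14 without vorinostat 2 and that against tadalafil was 0.06 without tadalafil 3. Both also mix the array sets, as all vorinostat and tadalafil arrays belong to the first. In the first set alone, the combination lay below vorinostat for 9 of 10 surface and junction and 5 of 6 lipid genes. It also lay below for 4 of 5 compact myelin, 1 of 5 cytoskeleton and 1 of 5 transcription factor genes. Over all genes 7651 of 17092 lay below. Against tadalafil it lay below for 3 of 5 cytoskeleton genes and every gene of the other roles (8416 of 17092). CM-414 was above the combination for 27 of the 31 genes, with 4 below (50.9% of all genes) and a median of 0.17, and none was called, against 0.0234% of all genes, nor did any stand clear of the combination arrays, against 2.16% of all genes. Here 5 genes had an unadjusted p under 0.05, 16.1% of the 31 and 15.9% of all genes, namely Olig2, Gjc3, Myrf, Ppp1r14a and Sox10. Olig2 was 0.50 higher with CM-414 (standard error 0.14, adjusted p = 0.111) and 0.43 higher without vehicle 3 and CM-414 3 (adjusted p = 0.176). Without these 2 arrays the median over the list was -0.02 with 18 of 31 below (51.6% of all genes), and in the second array set alone it was 0.12, which was -0.11 without CM-414 3.

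The F test over the 5 groups called none of the 31 genes, against 0.152% of all genes, and 4 had an unadjusted p under 0.05, 12.9% of the list against 13.7% of all genes. All 4 were transcription factors: Olig2 (adjusted p = 0.124), Myrf (0.251), Olig1 (0.316) and Sox10 (0.33). Within array sets, Olig2 differed in sign after the combination. It lay 0.50 below vehicle in the first set, as the combination arrays 1 to 3 were at 8.03, 7.94 and 8.16 and vehicle 1 to 3 at 8.28, 8.74 and 8.62. It lay 0.28 above vehicle in the second set, where combination 4 to 7 were at 8.43, 8.39, 8.57 and 8.67 and vehicle 4 to 7 at 8.38, 8.14, 8.01 and 8.42. In the first set no combination array reached any vehicle array, and in the second the ranges overlapped. How many of all genes stood clear in the same 3 against 3 arrays was not counted, so this separation has no reference. The difference between the sets was -0.78 (standard error 0.18, adjusted p = 0.772), and Olig1 and Ugt8a followed with -0.43 (standard error 0.16) and -0.64 (standard error 0.29), so that 3 of the 31 genes, 9.68%, had an unadjusted p under 0.05 against 6.03% of all genes.

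The start regions of Olig2, Ppp1r14a and Gjb1 are shown here, as RefSeq gives them for GRCm38.p6, because these had the smallest p of the F test among the genes with an entry, although only Olig2 was under 0.05 (adjusted p = 0.381 for Ppp1r14a and 0.486 for Gjb1 in limma). Each line holds 250 bases before and 50 after the annotated start, 5′ to 3′ on the plus strand, at chr16:91225300-91225599 for Olig2, chr7:29289070-29289369 for Ppp1r14a and chrX:101376126-101376425 for Gjb1, for which this is the first of 4 entries. Capitals mark the letters ACAAAG and ACAATG (found in sites of SOX factors), CAGCTG (an E-box, as bound by helix-loop-helix factors) and GGGCGG (a GC box), on either strand.
Olig2: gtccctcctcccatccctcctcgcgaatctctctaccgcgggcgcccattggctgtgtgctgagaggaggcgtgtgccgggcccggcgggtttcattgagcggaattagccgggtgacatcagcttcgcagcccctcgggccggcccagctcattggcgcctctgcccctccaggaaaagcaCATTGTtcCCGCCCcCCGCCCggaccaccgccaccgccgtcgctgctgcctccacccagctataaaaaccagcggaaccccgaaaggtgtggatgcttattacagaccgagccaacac
Ppp1r14a: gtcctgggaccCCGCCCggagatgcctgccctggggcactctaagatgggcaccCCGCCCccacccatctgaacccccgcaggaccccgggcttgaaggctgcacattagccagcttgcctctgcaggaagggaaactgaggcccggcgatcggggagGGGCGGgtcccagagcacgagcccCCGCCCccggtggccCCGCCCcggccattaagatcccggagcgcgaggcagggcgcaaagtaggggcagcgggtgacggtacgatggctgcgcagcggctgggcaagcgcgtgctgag
Gjb1: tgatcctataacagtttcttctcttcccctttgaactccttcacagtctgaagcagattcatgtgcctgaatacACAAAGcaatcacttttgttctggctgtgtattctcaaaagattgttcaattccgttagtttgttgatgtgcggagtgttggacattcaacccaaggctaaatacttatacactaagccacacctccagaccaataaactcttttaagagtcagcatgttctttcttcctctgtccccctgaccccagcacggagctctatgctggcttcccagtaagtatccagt
The Olig2 region held 1 match of ACAATG on the other strand (CATTGT), starting 68 bases before the start, and 2 of the GC box (CCGCCC), at 60 and 53 bases. Ppp1r14a had 5 GC boxes and Gjb1 had ACAAAG at 176 bases before its start. Of the 31 measured genes and Trf, 23 had an entry. Of these 23, 26.1% held ACAAAG against 18.7% of 27025 promoters of the same length, 17.4% held ACAATG against 12.8%, 21.7% held CAGCTG against 16.1% and 43.5% held GGGCGG against 35.9%, each searched on both strands and without regard to overlap between motifs. A match is a run of letters and not a measured site.

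Other genes of the lineage were compared in the same way. Of 40 other oligodendrocyte genes 37 were measured, and 27 lay below vehicle after the combination, 31 with vorinostat, 28 with tadalafil and 13 with CM-414, with medians of -0.11, -0.12, -0.06 and 0.05 and none called. Over all genes the shares below vehicle were 50.3%, 53.7%, 50.0% and 52.4% in the same order. Without vehicle 3 and CM-414 3 the counts below were 25, 28, 19 and 20, with medians of -0.06, -0.04, -0.02 and -0.02, and the shares over all genes 51.0%, 54.6%, 50.9% and 53.3%. Galnt6 and Prr18 had the smallest p after the combination, with differences of -0.30 (standard error 0.13) and -0.23 (standard error 0.10), both with an adjusted p of 0.995. With vorinostat, Tppp, which encodes a tubulin-binding protein of oligodendrocytes, differed by -0.19 (standard error 0.07, adjusted p = 0.45), and Sox8, a relative of Sox10, by 0.24 (standard error 0.10, adjusted p = 0.505), the opposite sign of Sox10. With CM-414, Zfp488, the gene of a zinc finger factor of oligodendrocytes, was 0.30 above vehicle (standard error 0.09, adjusted p = 0.162).

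Of the oligodendrocyte precursor genes 16 of 17 were measured, with Gpr17 also in the list above. Here 14 of the 16 lay above vehicle with CM-414, with a median of 0.13, while 52.4% of all genes lay below. After the combination 5 of the 16 lay below vehicle (median 0.02, 50.3% of all genes), with vorinostat 11 (median -0.06, 53.7%) and with tadalafil 10 (median -0.04, 50.0%). None was called. After leaving out vehicle 3 and CM-414 3, 4 of the 16 lay below with the combination (median 0.05), 11 with vorinostat (median -0.06), 8 with tadalafil (median -0.01) and 3 with CM-414 (median 0.09). C1ql1, the gene of a secreted protein of precursors, lay 0.50 higher with CM-414 than after the combination (standard error 0.10, adjusted p = 0.0672), and was at -0.25 against vehicle after the combination (standard error 0.09, adjusted p = 0.995). Genes of sterol synthesis, whose product is a main lipid of myelin, were measured for 16 of 20. After the combination 15 of the 16 lay above vehicle (median 0.08), where 50.3% of all genes lay below. With vorinostat 13 lay below (median -0.09, 53.7% of all genes), with tadalafil 4 (median 0.11, 50.0%) and with CM-414 9 (median -0.01, 52.4%), and none was called. With vehicle 3 and CM-414 3 left out, 2 of the 16 sterol genes lay below after the combination (median 0.07), 13 with vorinostat (median -0.08), 3 with tadalafil (median 0.09) and 14 with CM-414 (median -0.11). Hmgcs1, which encodes an early enzyme of the pathway, was at -0.45 with CM-414 against the combination (standard error 0.10, adjusted p = 0.0672) and at -0.32 against vehicle (standard error 0.10, adjusted p = 0.176).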

How the data were processed

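Total RNA from the hippocampus of single mice was extracted, purified on RNeasy columns and hybridized to Affymetrix Mouse Gene 2.0 ST arrays, 24 in all. The values deposited by the authors are log2 expression of 41345 probe sets after RMA (version: not given in the sources used here). Gene names came from the platform annotation and gene types from RefSeq (GRCm38.p6). A probe set was kept if it named 1 protein-coding gene and exceeded 4 on the log2 scale (16 linear) in at least 2 arrays of each group, and the probe set with the highest mean stood for its gene, which left 17092 genes. The 5 groups were fitted together in limma 3.58.1 (R 4.3.3), with Benjamini-Hochberg adjustment over all genes at 0.05, and the script was tested on simulated data. Precision is limited by how many arrays a group has, and the p-values measure the spread between these mice only. Members and lists were chosen with earlier results of these data known. Named were, in each comparison with vehicle, the 4 genes of smallest p, in each role the 1 or 2 of smallest p after the combination, and in other lists the 2 of smallest p or fewer. Mbp, Hapln2, Gsn and Apod, the genes of the other comparisons and the promoters were chosen after values were seen. Alternatives covered the arrays, array sets, replicate numbers, filters, probe sets, normalization and variance model, and 2 that combine an array set with a left-out array were added after seeing the data. Columns were matched to arrays by their labels.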

Additional observations from a re-analysis of the deposited data

Results flagged for a closer look

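In groups of 4 to 10 arrays, a value was singled out when its gap to the nearest other array took an unusually large share of the group's range (Dixon's test at the 95% level). Of 93 combinations of a gene and a group tested, 7 were singled out, and chance alone does so in about 1 group in 20. Vehicle 3 was the array in 6 of the 7: Mog at 9.80 (next vehicle array 9.17), Aspa at 9.12 (8.13), Car2 at 11.47 (10.90), Gpr37 at 9.89 (9.28), Plekhh1 at 8.39 (7.71) and Hapln2 at 8.84 (7.83). The other was Cldn11 in combination 2 at 10.68, where the next combination array was at 10.12. Flags of different genes in 1 array share that array and are not independent.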

How the results depend on the processing

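No alternative called any of the 31 genes in any comparison. With each array left out in turn, the median difference of the 31 genes ranged from -0.26 to -0.11 for the combination against vehicle, from -0.27 to -0.08 for vorinostat, from -0.23 to -0.002 for tadalafil, from -0.18 to 0.11 for CM-414, from -0.14 to 0.08 for the combination against vorinostat, from -0.17 to 0.06 against tadalafil and from -0.02 to 0.28 for CM-414 against the combination. The last was -0.11 in the second array set without CM-414 3. In the first array set without vehicle 3, the differences of Myrf and Sox10 with tadalafil were 0.0245 and 0.0232, against -0.29 and -0.15 over all arrays. The cause was not tested. With array weights the median for the combination against vehicle was -0.15. With the replicate number as a block it was -0.20, and -0.26 for vorinostat, -0.14 for tadalafil and -0.05 for CM-414, with 0 of the 31 genes called, while calls over all genes went from 1 to 275 for CM-414 against vehicle, from 4 to 268 for CM-414 against the combination and from 26 to 52 for the F test. Same-numbered arrays did not deviate together throughout (correlations of their deviations from -0.24 to 0.73, the latter between vehicle 3 and CM-414 3). Whether the numbers pair the mice cannot be decided from this. For vehicle and the combination the deviations also hold any difference between the array sets. Vorinostat and tadalafil lie in 1 set, and their correlations were 0.08, 0.17 and 0.27. CM-414 1 to 3 belong to the second set and the other arrays numbered 1 to 3 to the first, so that these blocks join both sets. Block 3 holds both vehicle 3 and CM-414 3, and its part in the calls was not tested. Calls over all genes depended on the setting: with no gene of the 31 among them, they ran from 0 to 323 for CM-414 against vehicle, from 0 to 686 for CM-414 against the combination and from 3 to 370 for the F test with single arrays left out, each highest without CM-414 2, and without vehicle 3 they were 51, 80 and 75. Other settings gave 0 to 17, 0 to 51 and 0 to 111, and vorinostat against vehicle had 17 with array weights against 1. Log2 values of arrays hold no depth.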
